A study of Mus musculus with 2 samples.

Results

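DNA repair genes are described here in mouse embryonic stem (ES) cells treated with ICRF-193, pathway by pathway. The genes were chosen by name, with earlier results of these data known. They are the rows of the deposited table carrying the symbols of 8 groups: the Fanconi anaemia genes, the PARP family, base excision and single-strand break repair, the checkpoint clamp with translesion synthesis, end joining, homologous recombination with end resection, mismatch repair and nucleotide excision repair. They number 66 of the 21937 genes in the table. The ES cells were wild type, of the 129Sv-C57Bl/6 strain, and grown without feeder cells. The treated cells received ICRF-193 at 500 nM for 16 h, and the controls received DMSO, its solvent, for the same 16 h. Each group comprised 3 libraries of messenger RNA.

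Topoisomerase II untangles chromosomes by letting one DNA duplex pass through a break it opens in another, and ICRF-193 blocks its cycle by holding the enzyme closed around DNA. The repair pathways act on different lesions. Nucleotide excision repair cuts out bulky adducts, base excision repair and the PARP enzymes handle damaged bases and nicks, and mismatch repair corrects copying errors. End joining reseals double-strand breaks directly, homologous recombination copies them from the sister chromatid, and the Fanconi anaemia proteins work on crosslinks between strands. Translesion polymerases copy past damage that was not removed. Many of these genes are transcribed most strongly as cells prepare for and carry out replication, and a few are known targets of the p53 tumour suppressor. ES cells, which cycle fast and have a short G1 phase, are known to express repair genes at high levels.

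The deposited table gives the group means of every gene in normalised reads, which are reads scaled by the size factor of each library, together with a fold change and a DESeq p-value. The whole reads behind each mean were worked back from its printed digits for all 66 repair genes. Within a group the library of largest size factor is called A, the next B and the last C, and this letter is not a replicate number. Recovered totals lay between 27210898 and 43545628 reads per library, without 46 genes that could not be resolved. The labels do not say whether replicates came from separate cultures, so a p-value here reflects the spread of these libraries alone, which may be technical. Transcripts of all 12 ES cell markers examined were present, and their summed level lay between 117347 and 134985 normalised reads in ICRF-193 cells, against 179869 to 199755 in DMSO cells. Of these 12 markers 0 were called higher and 3 lower by the authors' deposited table. Both libraries A stood apart. The summed level of 10 fibroblast markers was 51692 in library A of ICRF-193 cells against 8433 and 7463 in B and C, and 41451 in library A of DMSO cells against 4919 and 5825 in B and C. The summed level of 2-cell-embryo markers, 9 of 10 in the table, was 1182 in library A of ICRF-193 cells against 179 and 173 in B and C, and 777 in library A of DMSO cells against 68.5 and 122 in B and C, although the defining markers Tcstv1 and Tcstv3 were at 0 in every library. The 10 markers of primitive and visceral endoderm summed to 31135 in library A of ICRF-193 cells against 16934 and 17475 in B and C, and to 32934 in library A of DMSO cells against 12585 and 15155 in B and C. The summed level of trophectoderm markers, 7 of 8 in the table, did not overlap between the groups and lay between 21914 and 33075 in ICRF-193 cells, against 14898 to 17384 in DMSO cells, with 1 gene called higher by the authors' deposited table. The summed level of neural markers, 8 of 9 in the table, lay between 10443 and 14033 in ICRF-193 cells, against 7732 to 10406 in DMSO cells, with 2 called higher and 1 lower by the authors' deposited table. The part of such cells in the results was not tested, and the counts of calls and the 3 genes called higher are also given without libraries A. In such bulk libraries fewer cells of a type and less RNA per cell cannot be told apart.

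Of the 66 repair genes Ercc5, Polk and Parp10 were higher in ICRF-193 cells than in DMSO cells, and the other 63 were not called. The authors' deposited table was read at a DESeq adjusted p under 0.05 over all 18759 genes with reads, where 3 of the 66 genes (4.55%) were higher and 0 were lower. The same test called 5.97% of all genes higher and 1.26% lower, so the share of repair genes called higher was near that of all genes. At an unadjusted p under 0.05 in the authors' deposited table, 4 were higher (6.06%) and 6 were lower (9.09%). Those shares were 11.5% and 5.38% over all genes, and 10.2% and 7.90% over genes with a mean of at least 100 normalised reads. The median log2 fold change of the 66 genes was -0.21 in the authors' deposited table. It was -0.00 over all genes and -0.10 over the 11868 genes with a mean of at least 100 normalised reads. Of the 66 repair genes 51 (77.3%) had a log2 fold change below 0 in the authors' deposited table, against 49.4% of all genes and 60.5% of those 11868 genes. Scaling by total reads in place of size factors raised the median limma-voom log2 difference of all genes by 0.12 and left 43 of the 66 repair genes below 0.

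In the separate libraries the small differences were mostly downward. In 25 of the 66 repair genes (37.9%) every ICRF-193 library was below every DMSO library, against 15.4% of all genes and 22.3% of genes with a mean of at least 100. In 5 repair genes (7.58%) every ICRF-193 library was above every DMSO library, against 17.8% of all genes, and in 36 the groups overlapped. Limma-voom on the recovered reads called 3 repair genes higher and 7 lower (10.6%) at an adjusted p under 0.05. It called 9.75% of the 14981 genes tested higher and 5.95% lower. Over genes with a mean of at least 100 those shares were 8.01% and 7.27%. Adding a term for the split of libraries A from B and C gave 7 repair genes higher (10.6%), against 27.1% of all genes. The same fit gave 38 lower (57.6%), against 32.6% of all genes and 39.8% of genes with a mean of at least 100. Libraries B and C alone gave 8 higher (12.1%) and 34 lower (51.5%). Those shares were 24.1% and 29.8% of all 14426 genes tested, and 22.7% and 35.4% of genes with a mean of at least 100. The 7 genes lower by limma-voom were Fancc, Fancl, Palb2, Parp1, Rad51c, Rad54b and Xrcc5. That count was 0 without DMSO-B, ICRF-193-B or ICRF-193-C, 1 without DMSO-C, 3 without ICRF-193-A and 10 without DMSO-A. The calls over all genes moved alike: 892 were lower with all libraries, 109 without DMSO-B, 74 without ICRF-193-B, 116 without ICRF-193-C, 205 without DMSO-C, 568 without ICRF-193-A and 1392 without DMSO-A.

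**Figure D1:**
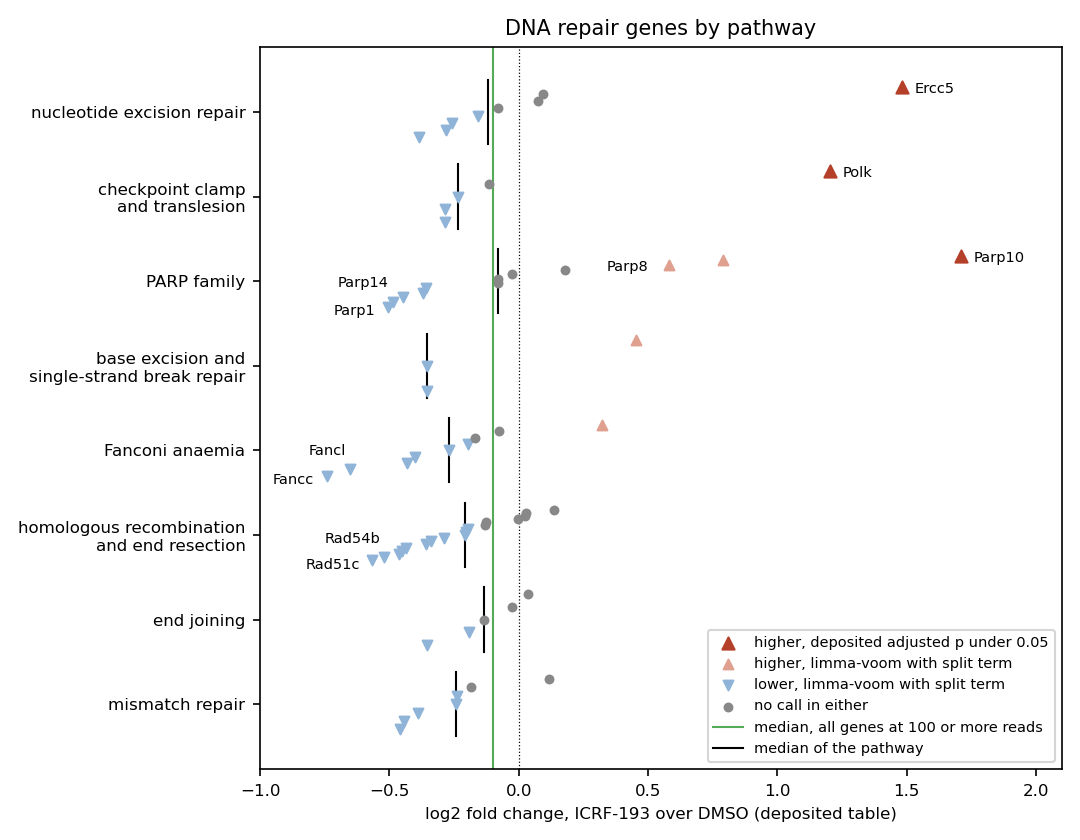
Log2 fold change of each repair gene, ICRF-193 over DMSO, from the authors' deposited table (x axis), by pathway (y axis). Each symbol is 1 gene, dark triangles are the 3 genes called higher, pale triangles are called by limma-voom with the split term, grey points by neither, black bars mark pathway medians and the green line the median of genes with a mean of at least 100. Ercc5, Polk and Parp10 lie beyond 1, and the lowest gene, Fancc, lies at -0.74.

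The plot of fold changes by pathway shows that the medians of all 8 pathways lay below 0, between -0.35 for base excision and single-strand break repair and -0.08 for the PARP family. With total read scaling the limma-voom medians of the PARP family (0.06) and of nucleotide excision repair (0.01) were above 0, and with upper quartile scaling that of the PARP family (0.01), while the other pathways stayed below 0. The 3 genes called higher belonged to 3 different pathways.

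Nucleotide excision repair opens the DNA around a bulky lesion, cuts the damaged strand on both sides and refills the gap. Of its 8 genes, 1 was called higher (12.5%) by the authors' deposited table, 0 were lower and 7 were not called. Over all genes 5.97% were called higher and 1.26% lower. The median log2 fold change of the 8 genes was -0.12 in the authors' deposited table. The gene called higher was Ercc5, which encodes XPG, the nuclease that cuts on the 3′ side of the lesion. Ercc5 had 6104, 7049.5 and 6522 normalised reads in ICRF-193 libraries A, B and C, against 2587, 2228 and 2234 in DMSO libraries A, B and C. The lowest ICRF-193 library was far above the highest DMSO library. Its means were 6559 ± 474 in ICRF-193 cells and 2349.6 ± 206 in DMSO cells (SD, n = 3 each), and the authors' deposited table gave a 2.79-fold difference with a DESeq adjusted p of 2.62e-07. The log2 ratio of library A to library A was 1.24 and that of B and C to B and C was 1.60. Ercc5 remained called in all 14 limma-voom fits, with adjusted p at most 0.0203.

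The other 7 genes of the pathway were not called by limma-voom either (0 higher and 0 lower besides Ercc5). The split term called 4 of the 8 lower (50%), Ercc1, Ercc2, Ercc3 and Ercc8. That share was 32.6% over all genes and 39.8% over genes with a mean of at least 100. Bivm, which lies directly upstream on the same strand and was looked up after the value of Ercc5 was seen, had 1165, 1028 and 1158 normalised reads in ICRF-193 cells, against 1281, 1252 and 1292 in DMSO cells, and all ICRF-193 libraries were below all DMSO libraries. Bivm was not called in the authors' deposited table (DESeq adjusted p 0.842) but was lower with the split term (limma-voom adjusted p 0.0304). Ercc3, the XPB helicase of the TFIIH complex, had the highest level per kb of exon in the pathway, 1222 normalised reads per kb in ICRF-193 cells and 1363 in DMSO cells. Its libraries held 3668, 3298 and 3425 reads in ICRF-193 cells, against 4015, 3729 and 3849 in DMSO cells. That is a small difference, and the authors' deposited table gave a log2 fold change of -0.16 with a DESeq adjusted p of 0.883. With the split term its limma-voom adjusted p was 0.0176. Ercc2, the XPD helicase, had the lowest log2 fold change in the pathway at -0.38 in the authors' deposited table, with a DESeq adjusted p of 0.487. An overlap with Gm26852 covers 24.6% of the exons of Ercc2, and the strand of the counting is not given in the sources used here. Xpc, the lesion sensor, known as a p53 target in human cells, had 1384, 1246 and 1186 normalised reads in ICRF-193 cells, against 1599, 1313 and 1126 in DMSO cells, with a log2 fold change of -0.08 in the authors' deposited table and overlapping groups.

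The checkpoint clamp and translesion genes link stalled replication to damage bypass. Of these 5 genes, 1 was called higher (20%) by the authors' deposited table, 0 were lower and 4 were not called. Over all genes 5.97% were called higher and 1.26% lower. Polk encodes polymerase kappa, a translesion polymerase that copies past bulky guanine adducts, and is a p53 target in mouse cells. It had 2960.2, 2642 and 2798 normalised reads in ICRF-193 cells, against 1637, 973 and 1039 in DMSO cells, and no libraries overlapped. The means were 2799.9 ± 159 in ICRF-193 cells and 1216 ± 366 in DMSO cells (SD, n = 3 each), a 2.30-fold difference in the authors' deposited table with a DESeq adjusted p of 0.000122. Library A of DMSO cells held more Polk reads than B and C. The log2 ratio was 0.85 between libraries A and 1.44 between libraries B and C, and a test of that difference gave a limma-voom adjusted p of 0.208, the lowest of the 66 genes. The call by limma-voom, at an adjusted p of 0.0123, was lost without DMSO-B (adjusted p 0.0597), DMSO-C (0.0552), ICRF-193-B (0.0611) or ICRF-193-C (0.0607), while the log2 difference stayed at 1.09 or more. Rad9, a subunit of the checkpoint clamp, had the highest level per kb of these genes. Its libraries held 1156, 1624 and 1634 normalised reads in ICRF-193 cells, against 1429.6, 1860.1 and 1903 in DMSO cells, and the groups overlapped (log2 -0.23 and DESeq adjusted p 0.79 in the authors' deposited table). Library A was the lowest in both groups, and the log2 ratio was -0.31 between libraries A and -0.21 between libraries B and C. Limma-voom called Rad9 lower with the split term (adjusted p 0.00442) and without libraries A (adjusted p 0.0272). Rad17, which loads the clamp, Rad1, another clamp subunit, and Rad18, the ubiquitin ligase that directs translesion synthesis, had log2 fold changes of -0.29, -0.29 and -0.12 in the authors' deposited table and were not called.

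The promoters of Ercc5 and Polk are shown because these genes were called higher and Polk is a known p53 target. RefSeq windows of 300 bases on GRCm38.p6, which is not the build the authors mapped to, reach 50 bases past a transcription start. Of these, 60 matched 50 of the 66 repair genes, and the 250 bases before the start are printed. The Ercc5 window at chr1:44147494-44147743, plus strand, holds in capitals a CCAAT box and TTCAAA, the reverse complement of the cell cycle element TTTGAA.
Ercc5: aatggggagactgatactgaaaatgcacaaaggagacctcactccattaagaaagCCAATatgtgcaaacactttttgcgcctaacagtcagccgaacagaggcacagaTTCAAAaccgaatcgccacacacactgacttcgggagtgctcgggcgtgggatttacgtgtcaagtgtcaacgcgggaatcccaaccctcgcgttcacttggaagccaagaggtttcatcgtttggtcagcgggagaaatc
The upstream Polk window at chr13:96542580-96542829, minus strand, holds none of the motifs searched.
Polk: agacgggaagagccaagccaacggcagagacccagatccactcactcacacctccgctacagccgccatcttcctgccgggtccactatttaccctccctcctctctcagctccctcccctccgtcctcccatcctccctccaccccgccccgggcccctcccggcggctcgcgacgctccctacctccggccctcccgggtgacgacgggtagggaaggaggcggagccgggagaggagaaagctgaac
The window before an internal Polk start at chr13:96519188-96519437, minus strand, holds the p53 half-site in capitals.
Polk: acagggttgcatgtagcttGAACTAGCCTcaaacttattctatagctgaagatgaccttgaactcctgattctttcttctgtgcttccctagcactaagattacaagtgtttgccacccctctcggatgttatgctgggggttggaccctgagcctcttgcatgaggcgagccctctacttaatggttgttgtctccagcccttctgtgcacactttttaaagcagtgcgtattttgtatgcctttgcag
The p53 half-site, searched on both strands, occurred in 4 of the 60 repair gene windows (6.67%), against 8.36% of all 32851 windows, counted over the 300 bases. A match is a description of letters and not a bound site.

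**Figure D2:**
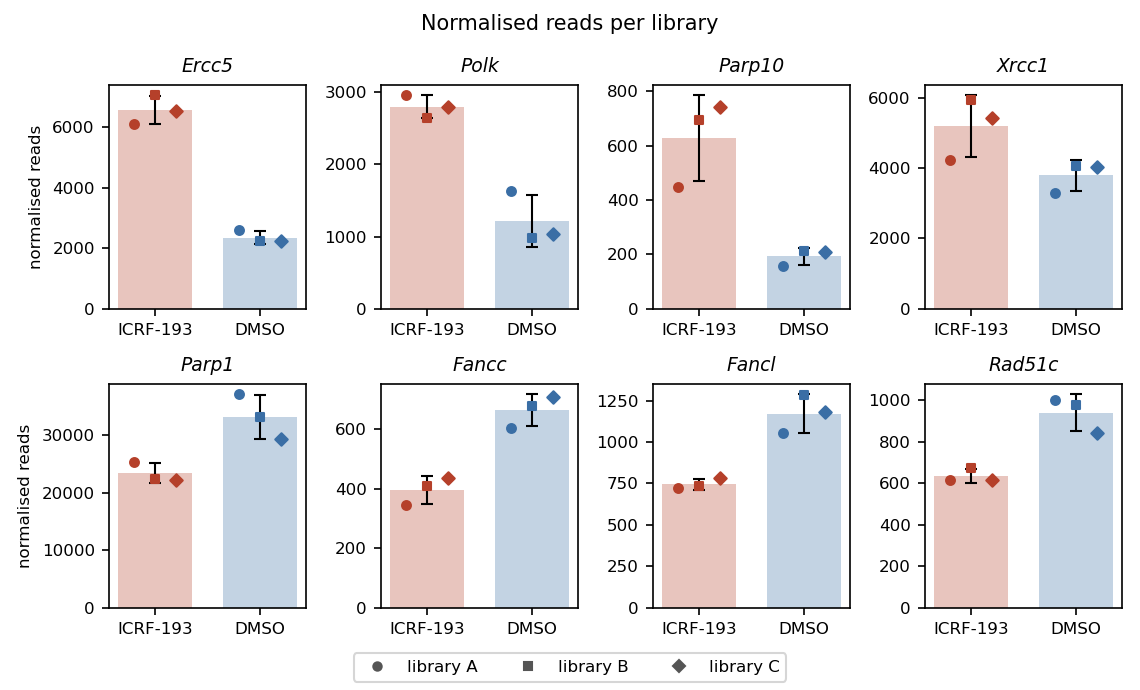
Normalised reads (y axis, from 0) of 8 repair genes in ICRF-193 and DMSO cells. Points are the 3 recovered libraries of each group, bars the group mean and error bars the SD. The groups do not overlap in any of the 8 panels, and the ICRF-193 libraries lie higher for Ercc5, Polk, Parp10 and Xrcc1 and lower for Parp1, Fancc, Fancl and Rad51c.

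The PARP family attaches ADP-ribose to proteins, and some members make long chains of it at DNA breaks. Of its 12 genes, 1 was called higher (8.33%) by the authors' deposited table, 0 were lower and 11 were not called. Over all genes 5.97% were called higher and 1.26% lower. At an unadjusted DESeq p under 0.05 in the authors' deposited table, 2 were higher (16.7%) and 2 lower (16.7%). Those shares were 11.5% and 5.38% over all genes, and 10.2% and 7.90% over genes with a mean of at least 100. Limma-voom called 1 higher (8.33%) and 1 lower (8.33%), against 9.75% and 5.95% of all genes. Parp10, a mono-ADP-ribosyltransferase, had 449, 696 and 741 normalised reads in ICRF-193 cells, against 155, 211 and 209.6 in DMSO cells. The groups did not overlap, and in each group library A was the lowest. The means were 628 ± 157 in ICRF-193 cells and 192 ± 31.9 in DMSO cells (SD, n = 3 each), a 3.27-fold difference in the authors' deposited table with a DESeq adjusted p of 2.37e-05. This was the largest fold change among the 66 genes. By limma-voom its adjusted p was 0.00943, and 0.0536 without ICRF-193-B. Without libraries A the log2 difference was 1.77 (limma-voom adjusted p 1.12e-06). Plec, whose exons overlap those of Parp10 in part on the same strand, was looked up after the value of Parp10 was seen. It had 13793, 12214 and 10514 normalised reads in ICRF-193 cells, against 9581, 5194 and 5049.9 in DMSO cells, and was also called higher by the authors' deposited table (DESeq adjusted p 0.0375).

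Parp1, the main enzyme of the family at DNA breaks, was among the highest-expressed of all 66 genes, with 4405 normalised reads per kb of exon in ICRF-193 cells and 6259.8 in DMSO cells. Its libraries held 25326, 22411 and 22206 normalised reads in ICRF-193 cells, against 37003, 33039 and 29357 in DMSO cells, so that every ICRF-193 library was lower. The authors' deposited table gave a log2 fold change of -0.51 with a DESeq adjusted p of 0.218, and limma-voom an adjusted p of 0.0304. Parp2, which shares with Parp1 the role of break sensor, had a log2 fold change of -0.36 in the authors' deposited table (DESeq adjusted p 0.528) and a limma-voom adjusted p of 0.105. Parp14, a mono-ADP-ribosyltransferase tied to STAT6 signalling, had 379, 305 and 352 normalised reads in ICRF-193 cells, against 587, 442 and 423 in DMSO cells. Its groups did not overlap, with a log2 fold change of -0.49 and a DESeq adjusted p of 0.289 in the authors' deposited table. Parp8, a less studied member, ran the other way, with 249, 178 and 168 normalised reads in ICRF-193 cells, against 139, 122 and 137 in DMSO cells. In the authors' deposited table its log2 fold change was 0.58 at a DESeq adjusted p of 0.26. Parp4, the enzyme of the vault particle, had 956, 729 and 497 normalised reads in ICRF-193 cells, against 643, 330.4 and 289.6 in DMSO cells. The groups overlapped and library A was the highest in both of them, and the split-term limma-voom fit called Parp4 higher (adjusted p 0.00068) while the authors' deposited table did not (DESeq adjusted p 0.427). The remaining Parp3, Parp6, Parp9, Parp11, Parp12 and Parp16 had log2 fold changes between -0.45 and 0.18 in the authors' deposited table and were not called.

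Base excision and single-strand break repair was covered by Xrcc1, Lig1 and Lig3, of which 0 were called higher and 0 lower by the authors' deposited table, also at an unadjusted DESeq p under 0.05 and by limma-voom. With the split term 1 was higher (33.3%) and 2 were lower (66.7%). Those shares were 27.1% and 32.6% over all genes, and 24.1% and 39.8% over genes with a mean of at least 100. Xrcc1, the scaffold that holds ligase 3 at a nick, had 4224, 5946 and 5420.3 normalised reads in ICRF-193 cells, against 3286, 4073 and 4024 in DMSO cells. Every ICRF-193 library was above every DMSO library, with a log2 fold change of 0.45 and a DESeq adjusted p of 0.311 in the authors' deposited table. Its split-term limma-voom adjusted p was 5.85e-05. Lig1, the ligase that also seals Okazaki fragments, was the highest per kb of the group at 2165 normalised reads per kb in ICRF-193 cells and 2767 in DMSO cells. It had 9830.1, 8865 and 9029 normalised reads in ICRF-193 cells, against 12943, 11412 and 11070.3 in DMSO cells, with every ICRF-193 library lower. Its log2 fold change of -0.35 was not called in the authors' deposited table (DESeq adjusted p 0.498), nor was the -0.35 of Lig3, whose exons overlap Rffl over 25.1% of their length. The scaffold and the 2 ligases thus had differences of opposite sign.

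The Fanconi anaemia proteins form a core complex that ubiquitinates FANCI and FANCD2 at a stalled fork. Of the 9 genes 0 were called in either direction by the authors' deposited table, and their median log2 fold change was -0.27. At an unadjusted DESeq p under 0.05 there, 2 were lower (22.2%). That share was 5.38% over all genes and 7.90% over genes with a mean of at least 100. Limma-voom called 2 lower (22.2%), against 5.95% of all genes. Fancc, a core complex subunit, had the lowest log2 fold change of all 66 genes at -0.74 in the authors' deposited table, just outside the threshold (DESeq adjusted p 0.0536). It had 344, 409 and 434 normalised reads in ICRF-193 cells, against 603, 677 and 707 in DMSO cells, and every ICRF-193 library was lower. Fancl, the ubiquitin ligase of the complex, had 721, 733 and 784 in ICRF-193 cells, against 1052, 1282 and 1181 in DMSO cells, again with no overlap. Its DESeq adjusted p in the authors' deposited table was 0.102. Limma-voom gave adjusted p of 0.0188 for Fancc and 0.0176 for Fancl, and over 14 alternative fits these ranged up to 0.0883 and 0.0936. Exons of Fancc overlap Gm16133 over 16.4% of their length, and those of Fancl overlap Vrk2 on the other strand over 13.7%. Fance, which binds FANCD2, had the highest level per kb among DMSO cells, with 402 normalised reads per kb in ICRF-193 cells and 542 in DMSO cells. Its libraries held 1044, 1336 and 1464 normalised reads in ICRF-193 cells, against 1426, 1925 and 1840.4 in DMSO cells, with a log2 fold change of -0.43 (DESeq adjusted p 0.404) in the authors' deposited table. The groups overlapped for Fance. Fancg, another core subunit, was the only one of the 9 with a log2 fold change above 0, at 0.32 in the authors' deposited table, although Fanca joined it under total read scaling, and the split-term limma-voom fit called it higher (adjusted p 0.00153). Fanca, Fancb, Fancf, Fanci and Fancm lay between -0.40 and -0.08 in the authors' deposited table.

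Homologous recombination begins with resection of the broken end, continues with the assembly of a protein filament on the exposed strand by BRCA2 and its partners, and ends with strand exchange. Its 17 genes had a median log2 fold change of -0.21, and 0 were called in either direction by the authors' deposited table. At an unadjusted DESeq p under 0.05 in the authors' deposited table, 2 were lower (11.8%). That share was 5.38% over all genes and 7.90% over genes with a mean of at least 100. Limma-voom called 3 lower (17.6%), against 5.95% of all genes. The split term called 11 lower (64.7%), against 32.6% of all genes and 39.8% of genes with a mean of at least 100. In 10 of them (58.8%) every ICRF-193 library was below every DMSO library, against 15.4% of all genes and 22.3% of genes with a mean of at least 100. Among the end resection genes, Rad50, the ATPase of the MRN complex, had 4320.3, 3754 and 3463 normalised reads in ICRF-193 cells, against 6069, 4921 and 4625 in DMSO cells. No libraries overlapped, and the log2 fold change was -0.44 in the authors' deposited table (DESeq adjusted p 0.336). Its MRN partners Nbn and Mre11a, the signalling subunit and the nuclease, had -0.45 and -0.29 in the authors' deposited table and were not called. Rbbp8, which encodes the resection factor CtIP, had -0.00, and the nuclease Exo1 had -0.13, both from the authors' deposited table.

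Of the genes that act after resection, Rad51c, a mediator of filament assembly, had 614, 674 and 618 normalised reads in ICRF-193 cells, against 1005, 978 and 841 in DMSO cells, and every ICRF-193 library was lower. The authors' deposited table gave a log2 fold change of -0.57 with a DESeq adjusted p of 0.173, and limma-voom an adjusted p of 0.026. Its relatives Xrcc2 and Xrcc3 had log2 fold changes of -0.21 and -0.34 in the authors' deposited table and were not called. Rad54b, a motor protein that helps strand exchange, had 1182, 1121 and 1172 normalised reads in ICRF-193 cells, against 1853, 1604 and 1524 in DMSO cells, with a log2 fold change of -0.52 in the authors' deposited table (DESeq adjusted p 0.214). All its ICRF-193 libraries were lower, and limma-voom gave an adjusted p of 0.0283. Its exons overlap Fsbp on the same strand over 35.8% of their length, so its reads may be shared with that gene. Brca1, a ubiquitin ligase subunit, had overlapping groups, with 6286, 3995 and 4148 normalised reads in ICRF-193 cells, against 6358, 4106 and 3715 in DMSO cells. Brca2 and Palb2, which act together in filament assembly, were at -0.46 and -0.36, and Blm, Rad51ap1, Rad52 and Rad54l lay between -0.20 and 0.03, all from the authors' deposited table.

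End joining depends on the Ku ring, DNA-PK and ligase 4. None of its 5 genes was called by the authors' deposited table (0 higher and 0 lower, also at an unadjusted DESeq p under 0.05). Their median log2 fold change was -0.13. Limma-voom called 1 of the 5 lower (20%), against 5.95% of all genes. Xrcc5, the larger Ku subunit, was the highest per kb at 2327 normalised reads in ICRF-193 cells and 2975 in DMSO cells. Its libraries held 5787, 5756 and 6294 normalised reads in ICRF-193 cells, against 7518, 7876 and 7411 in DMSO cells, so that the groups did not overlap. The log2 fold change was -0.35 with a DESeq adjusted p of 0.513 in the authors' deposited table and a limma-voom adjusted p of 0.0358. Xrcc6, the other Ku subunit, had 4324, 4776 and 4746 normalised reads in ICRF-193 cells, against 5044, 5486 and 5297 in DMSO cells, and a log2 fold change of -0.19 in the authors' deposited table. Prkdc, the DNA-PK catalytic subunit, had overlapping groups, with 2608, 1985 and 1892 in ICRF-193 cells, against 2875, 1799 and 1651 in DMSO cells, and library A high in both. Lig4 and its partner Xrcc4 were at -0.13 and -0.02 in the authors' deposited table.

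Mismatch repair recognises a mispaired base with MutS pairs and recruits MutL. Of its 7 genes 0 were called by the authors' deposited table, also at an unadjusted DESeq p under 0.05, and 0 by limma-voom. With the split term 5 were lower (71.4%), against 32.6% of all genes and 39.8% of genes with a mean of at least 100. The median log2 fold change was -0.24. Msh6, a subunit of the MutS pair that binds single mispairs, was the highest-expressed repair gene in ICRF-193 cells, at 5246 normalised reads per kb of exon, against 6183 in DMSO cells. Its libraries held 27072, 21216 and 20110.0 normalised reads in ICRF-193 cells, against 34218, 24165 and 22232 in DMSO cells, and the groups overlapped. The authors' deposited table gave a log2 fold change of -0.24 with a DESeq adjusted p of 0.725. Msh4 and Msh5, which act in meiosis, were almost silent at 16.1 and 45.3 normalised reads in ICRF-193 cells, against 14.9 and 51.4 in DMSO cells. Library A of ICRF-193 cells held 24.1 Msh5 reads where B and C held 59.1 and 52.7. Mlh3 and Msh3 were at -0.44 and -0.24 in the authors' deposited table.

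**Figure D3:**
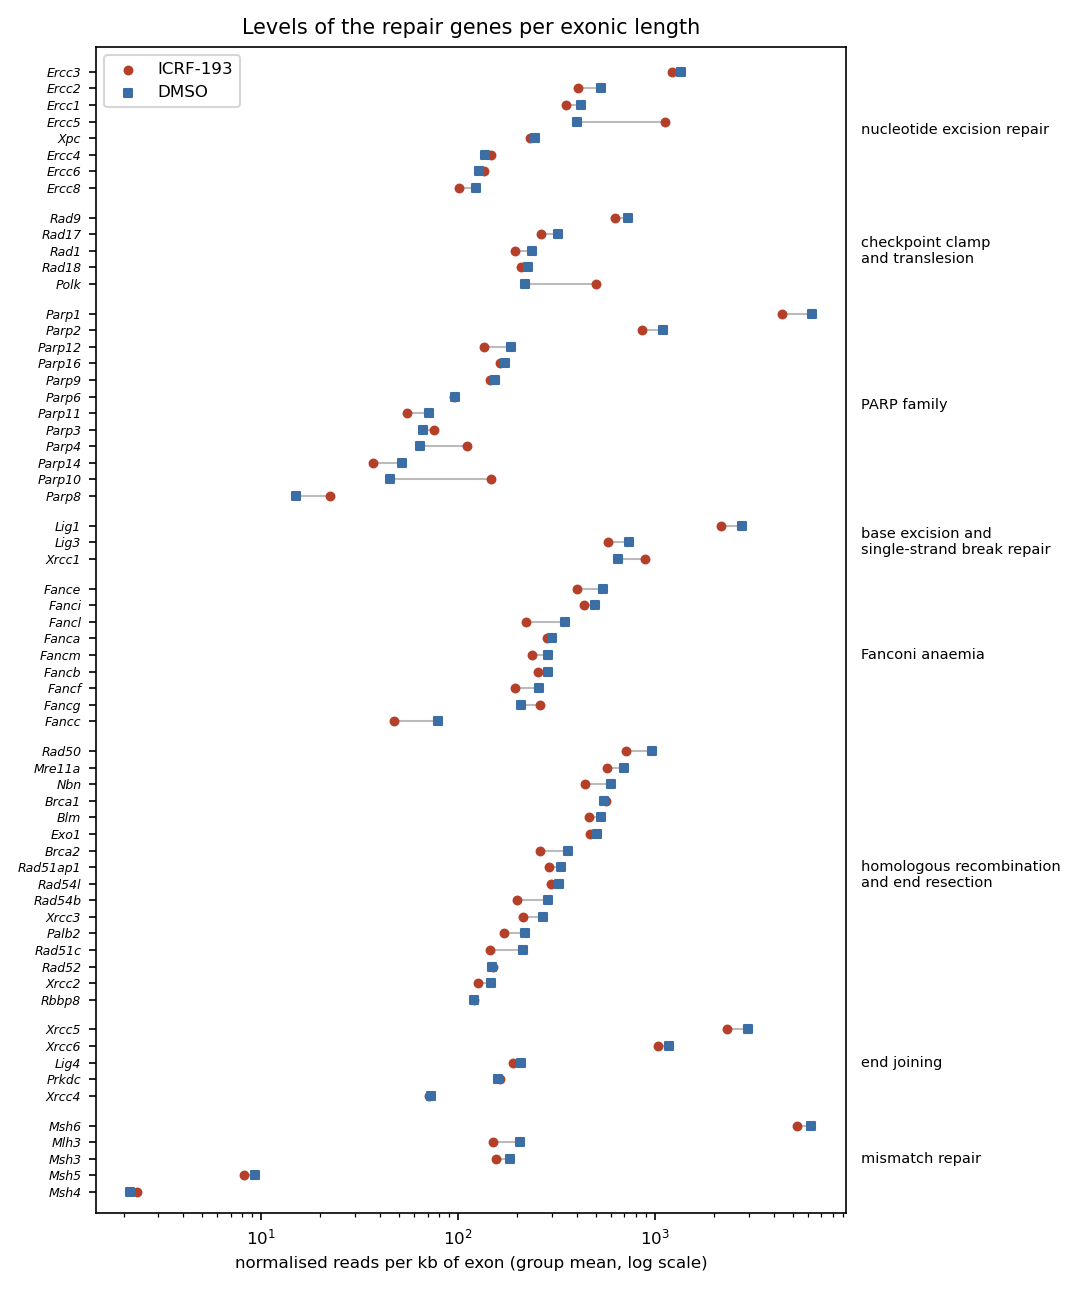
Group means of 63 of the 66 repair genes in normalised reads per kb of exon (x axis, log scale), with red circles for ICRF-193 and blue squares for DMSO cells, genes sorted by pathway. The ICRF-193 means run between 2.34 for Msh4 and 5246 for Msh6, and the DMSO means between 2.16 for Msh4 and 6260 for Parp1.

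The plot of levels per kb shows Parp1 and Msh6 as the highest repair genes in both groups, followed by Xrcc5 and Lig1. Msh4 and Msh5 were the lowest in both. Ercc5, Polk and Parp10 were the genes displaced furthest to the right in ICRF-193 cells.

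**Figure D4:**
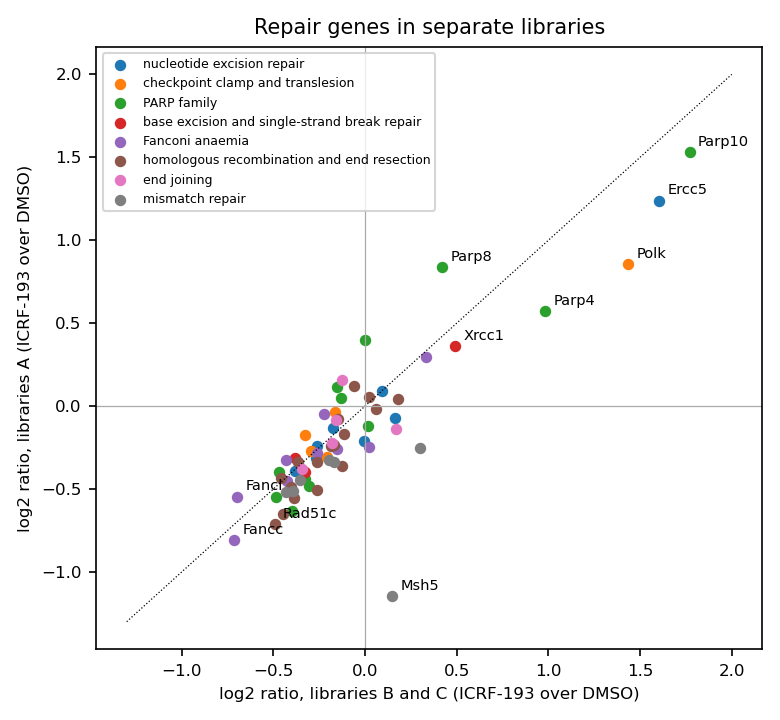
Log2 ratio of ICRF-193 to DMSO for each repair gene in libraries A (y axis) against libraries B and C (x axis). Points are genes coloured by pathway, the dotted line marks equal ratios, and Ercc5, Polk and Parp10 lie high on both axes while Msh5, at a low read count, lies far off the line.

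The ratio in libraries A was compared with that in libraries B and C for every gene. The median over the 66 genes was -0.25 between libraries A and -0.18 between libraries B and C. A limma-voom test of the difference called 0 of the 66 genes. Over all 14981 genes tested its lowest adjusted p was 0.0731, so no gene was called at all. The 0 therefore does not set the repair genes apart from other genes, and does not show equal ratios. At an unadjusted p under 0.05 in that test were 5 of the 66 repair genes and 1155 of the 14981 genes. Library A held between 0.431 (Msh5) and 1.89 (Parp3) times the mean of B and C within ICRF-193 cells, and between 0.607 (Rad52) and 2.07 (Parp4) times within DMSO cells.

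Of the 5 motifs searched, that of E2F, a factor family of replication genes, had the largest ratio of its share in repair gene windows to its share in all windows. The letters TTTCCCGC, TTTGGCGC, TTTCGCGC and TTTGCCGC were searched on both strands, and 9 of the 60 windows of 300 bases (15%) held one, against 2.26% of all windows. They belonged to Brca2, Fancg, Lig1, Msh3, Msh5, Msh6, Rad51c and Xrcc6. The count depends on the window: in the 250 bases before the start, a length tried after the first count was seen, 5 of the 60 (8.33%) held one, against 1.86% of all, those of Brca2, Fancg, Msh3, Msh5 and Xrcc6. In the authors' deposited table Fancg was at 0.32 and the other 7 between -0.57 and -0.18, with 0 of the 8 called. Examples with the E2F motif in capitals are shown from Xrcc6 at chr15:82016119-82016368, plus strand, and from Brca2 at chr5:150522371-150522620, plus strand. The Brca2 window also holds an interferon response motif in capitals.
Xrcc6: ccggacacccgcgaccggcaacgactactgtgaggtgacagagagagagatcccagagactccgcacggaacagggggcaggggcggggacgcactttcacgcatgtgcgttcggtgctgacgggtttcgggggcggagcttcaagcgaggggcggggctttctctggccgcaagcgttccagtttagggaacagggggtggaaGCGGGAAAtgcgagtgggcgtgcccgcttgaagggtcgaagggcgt
Brca2: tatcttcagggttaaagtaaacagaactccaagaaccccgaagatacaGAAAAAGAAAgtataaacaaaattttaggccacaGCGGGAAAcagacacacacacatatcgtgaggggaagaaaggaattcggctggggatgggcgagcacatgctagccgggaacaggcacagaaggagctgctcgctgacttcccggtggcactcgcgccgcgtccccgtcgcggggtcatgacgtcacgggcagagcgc
The Fancg window at chr4:43010302-43010551, minus strand, is shown because Fancg alone of the 8 had a log2 fold change above 0. Its capitals mark a p53 half-site and, further on, an E2F motif that overlaps an interferon motif.
Fancg: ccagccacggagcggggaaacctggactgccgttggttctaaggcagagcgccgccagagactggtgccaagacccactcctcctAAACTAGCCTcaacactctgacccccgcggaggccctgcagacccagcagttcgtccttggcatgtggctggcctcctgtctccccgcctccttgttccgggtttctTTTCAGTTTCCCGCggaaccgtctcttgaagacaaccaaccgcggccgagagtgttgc

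Few of the other genes of these pathways were called. Of 110 further repair genes 1 was higher (0.91%) and 3 were lower (2.73%) by the authors' deposited table. The same shares over all genes were 5.97% and 1.26%. Of the 110 genes 84 (76.4%) had a log2 fold change below 0, and the median was -0.17. Below 0 were 49.4% of all genes and 60.5% of genes with a mean of at least 100. The gene called higher was Mgmt, the enzyme that removes alkyl groups from guanine, with 779.9, 1044 and 1138 normalised reads in ICRF-193 cells, against 420.3, 603 and 503 in DMSO cells (DESeq adjusted p 0.0036 in the authors' deposited table). The 3 lower included Slx1b, a structure-specific nuclease, and Pold2, a subunit of polymerase delta. Slx1b had 736, 947 and 1055 in ICRF-193 cells, against 1304, 1924 and 2050.0 in DMSO cells, with a DESeq adjusted p of 0.0146 in the authors' deposited table. Pold2 had 3281, 3209 and 3553 in ICRF-193 cells, against 4797, 5823 and 5919 in DMSO cells, with a DESeq adjusted p of 0.0491 in the authors' deposited table. The groups did not overlap for any of these genes.

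Lists of other genes place the repair genes among their surroundings. Of 20 p53 targets, a list that includes Polk and Xpc, 10 were higher (50%) and 0 lower by the authors' deposited table. The same test called 5.97% of all genes higher and 1.26% lower. The median log2 fold change of the list was 0.84. The 10 called higher included Cdkn1a, the p21 cell cycle inhibitor, with 6681 normalised reads in ICRF-193 cells, against 2246 in DMSO cells. Trp73, a p53 relative, was also among them, with 1461 in ICRF-193 cells, against 129 in DMSO cells. Ddb2, a damage sensor of nucleotide excision repair known as a p53 target in human cells, was not among those 10, with 344 ± 88.6 normalised reads in ICRF-193 cells and 387 ± 55.8 in DMSO cells (SD, n = 3 each). Of 22 genes of G1/S and replication 0 were called in the authors' deposited table, with 1 lower at an unadjusted DESeq p under 0.05 and 1 by limma-voom, and a median of -0.13. Of 20 genes of G2 and mitosis all 20 had a log2 fold change below 0 in the authors' deposited table, with a median of -0.28. The 1 called lower (5%, against 1.26% of all genes) was Plk1, the mitotic kinase, at 4969.8 normalised reads in ICRF-193 cells, against 8980.2 in DMSO cells. The split-term limma-voom fit called 11 of the 22 G1/S genes lower (50%) and 3 higher (13.6%). It called 17 of the 20 G2 and mitosis genes lower (85%) and 0 higher. Over all genes those shares were 32.6% lower and 27.1% higher, and over genes with a mean of at least 100 they were 39.8% and 24.1%. Every ICRF-193 library was below every DMSO library in 6 (27.3%) and 9 (45%) genes of these lists. That share was 15.4% of all genes and 22.3% of genes with a mean of at least 100. The reverse held in 3 and 0. Top2a, the proliferation-linked topoisomerase II, had 33865, 23786 and 23837 normalised reads in ICRF-193 cells, against 47435, 36408 and 34196 in DMSO cells, and was not called in the authors' deposited table (DESeq adjusted p 0.176). The part of cell cycle phase in the levels of the repair genes was not tested.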

How the data were processed

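RNA of ES cells treated with ICRF-193 or DMSO was sequenced, 3 libraries per group in 2 samples. Per the submitters' processing notes TopHat, HTSeq and DESeq were used with build mm9; versions, annotation and strand are not given in the sources used here. The deposited group means are a signal that the authors made from read counts scaled by size factors. The deposited fold change is their ratio, with its log2, and the deposited p-values come from the authors' test, adjusted over 18759 genes. The repair genes and lists were chosen with earlier results of these data known.

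Whole reads per library were recovered from the 15 printed digits of each mean. Of the genes with reads 18210 (97.1%) had a single solution in both groups, 503 were taken at a posterior of at least 0.99, and 46 stayed unresolved. Among the repair genes 3 needed the posterior, Parp1 and Msh6 included. Limma-voom (limma 3.58.1, R 4.3.3) tested genes reaching 10 reads in 3 or more libraries, with Benjamini-Hochberg adjustment. Both steps were tested on simulated data. At a simulated log2 difference of 0.5 limma-voom found 0 of 67 changed genes, and 45 of 67 with the split term. At a difference of 1 the counts were 17 and 63 of 67, and at 2 they were 46 and 66 of 66. Of 14781 unchanged genes limma-voom called 0, and 6 with the split term. Simulated libraries A had the same shift in both groups, as the split term assumes, so the simulation favours that fit. The scatter between simulated libraries was set beforehand, and 14781 of 14981 genes were unchanged. In the real reads the split term called 27.1% of genes higher and 32.6% lower. The simulated counts therefore give no rate of false calls for the real reads. Genes named with all libraries are those at an unadjusted p under 0.05, the highest per kb and the largest change at a mean of at least 100 in each pathway. A few others, given because of their role, were chosen after their values were seen, and the values of some genes are not reported here. Exonic lengths and overlaps are from GENCODE M21. Counting error is part of the spread between libraries.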

Additional observations from a re-analysis of the deposited data

How the results depend on the processing

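Ercc5 was called higher in all 14 alternatives. Parp10 and Polk kept direction in all 14 and lost the call without single libraries, as given above. The count of repair genes higher was 3 in the deposited test, 7 with the split term, 8 without both libraries A, 12 under total read scaling plus the split term, and 1 to 4 with single libraries left out. The count lower was 0 in the deposited test and 7 by limma-voom, 38 with the split term, 10 with TMM, 3 with total read and 5 with upper quartile scaling, 6 with no filter, 34 without libraries A and 25 under total read scaling plus the split term. It was 1 when the deposited p was adjusted over genes at 10 or more reads, 1 at an adjusted p under 0.1, and 0 to 10 with single libraries left out. Of the 7 limma-voom calls, 7 recurred with the split term. That fit used the same reads and called 32.6% of all genes lower, so the recurrence is not separate support. Of the other repair genes, 1 was higher in the deposited test, 2 by limma-voom, 11 with the split term, 2 with TMM, 3 with total read and 2 with upper quartile scaling, 9 without libraries A, 17 under total read scaling plus the split term, and 0 to 2 with single libraries left out. Of these genes 3 were lower in the deposited test, and the same settings gave 12, 54, 12, 7, 8, 43 and 30, with 10 with no filter and 1 to 17 with single libraries left out. Total read scaling raised the median log2 difference of all genes by 0.12. The median of the repair genes was -0.21, -0.10 with total read scaling, -0.10 under total read scaling plus the split term, and -0.22 to -0.20 with single libraries left out. Neither the median over the 66 genes nor the genes named by the rule changed direction, but the balance of calls did. Higher and lower calls were 3 and 0 in the deposited test, 3 and 7 by limma-voom and 7 and 38 with the split term. Under total read scaling 8 of the 66 genes changed sign, as did the medians of the PARP family and of nucleotide excision repair, given above. The settings without both libraries A, and of total read scaling plus the split term, were chosen after seeing the data. The labels do not name a split of libraries A from B and C, so the split term rests on the recovered libraries alone. The causes were not tested. No paired analysis was possible because the columns carry no replicate number. With 3 libraries per group a small difference may be missed, and a gene not called is not shown to be equal.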

Other observations

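In the RefSeq windows of 300 bases around the start, CCAAT, searched on both strands, occurred in 48.3% of the repair gene windows, against 37.4% of all windows. The cell cycle element TTTGAA occurred in 3 of 60 (5%), those of Ercc5, Msh4 and Parp11, against 17.9% of all. The interferon response motif occurred in 5 of 60 (8.33%), those of Brca2, Fancg, Parp11, Parp4 and Xrcc1, against 3.44% of all. In the 250 bases before the start alone these shares were 43.3% against 33.8% for CCAAT, 5% against 16.0% for TTTGAA and 8.33% against 2.98% for the interferon response motif.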
